A study of Mus musculus with 12 samples.

Results

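The RNA of WT leukemic blasts from the spleen (SP) was compared with that of WT blasts from the bone marrow (BM). The comparison used 6 of the 12 libraries of the series, 3 from SP and 3 from BM, taken as those labelled WT in either organ. The table lists 24454 genes. Of these, 16396 had at least 1 read in the 6 WT libraries and 11477 reached a mean of 10 normalized counts over them, and these 11477 were tested. The question was how blasts of the same genotype differ between the organs they occupy.

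The blasts came from a mouse model of acute myeloid leukemia (AML). Fetal liver cells of WT mice were transduced with a retrovirus that carries the fusion oncogene MLL-AF9 together with the fluorescent reporter Venus. The Venus+ cells were transplanted by vein into young adult male NSG mice (NOD.Cg-Prkdcscid Il2rgtm1Wjl/SzJ), which lack mature T, B and NK cells of their own. Venus+ blasts were sorted from the SP and BM of diseased animals. The remaining 6 libraries came from blasts of the same model that lack the STAT3β isoform (Δβ), again 3 from SP and 3 from BM, and served to estimate the spread between libraries and as a second organ comparison. The labels do not say which animal or which transduced line a library came from, nor whether replicates of a group were separate animals, so every p-value below measures only the spread between these libraries. Nor do they give the number of transduced clones in a graft.

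The BM is the site where normal hematopoiesis takes place in the adult mouse, and its stromal cells hold progenitors through CXCL12 and through VCAM1, the ligand of the integrin α4β1. The spleen filters the blood, holds a reservoir of monocytes and becomes enlarged in mice with myeloid leukemia. MLL-AF9 keeps HOXA genes and Meis1 active, and the resulting blasts range from progenitor-like cells to cells with features of granulocytes and monocytes.

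The 6 WT libraries held 9329652 to 11630963 reads on genes, and 14115 to 14178 genes had a read in each. All values below are normalized counts, that is, reads divided by 1 size factor per library. A value of 3 reads corresponded to 2.98 to 3.42 normalized counts, and levels at or below that are close to the limit of detection. The blast markers were present in every WT library. Itgam, which encodes CD11b, reached 26293, 21981 and 10941 in WT SP replicates 1 to 3 and 10019, 12675 and 16687 in WT BM replicates 1 to 3. Hoxa9 reached 798, 2060.3 and 2671 in WT SP and 2735, 2311 and 2150.1 in WT BM, and Meis1 reached 516, 1423 and 1152 in WT SP and 1665, 1143 and 1255 in WT BM. Both genes were lowest in WT SP replicate 1. Stat3, whose splicing differs between the genotypes, was at 4429.8, 3662 and 2977 in WT SP and 2714, 2950.4 and 3201 in WT BM, and the groups overlapped (log2 difference 0.30 ± 0.16 (SE), limma adjusted p = 0.628).

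Sex-linked genes separated the WT libraries into 2 kinds. Xist, the RNA of the inactive X chromosome, was at 394, 12.7 and 45.7 in WT SP and at 25479.7, 14503 and 27.2 in WT BM. The summed level of 4 Y-linked genes (Ddx3y, Uty, Kdm5d and Eif2s3y) was 4310, 3631 and 2672 in WT SP and 2.98, 314 and 3307 in WT BM. WT BM replicate 1 thus carried Xist without Y-linked RNA, and WT BM replicate 2 carried Xist with 10.8% of the median Y-linked level of the 12 libraries. WT BM replicate 3 and the 3 WT SP libraries carried Y-linked RNA with little Xist. In Δβ blasts replicate 3 was the library with high Xist and little Y-linked RNA in SP as well as in BM. The 2 WT libraries of the first kind both came from BM, so that organ and sex of the cells can be told apart only through WT BM replicate 3. Eya1, which is named here after its values were seen, varied in a different manner, with 3.42, 493 and 769 in WT SP and 0.992, 3.38 and 620.4 in WT BM.

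**Figure D1:**
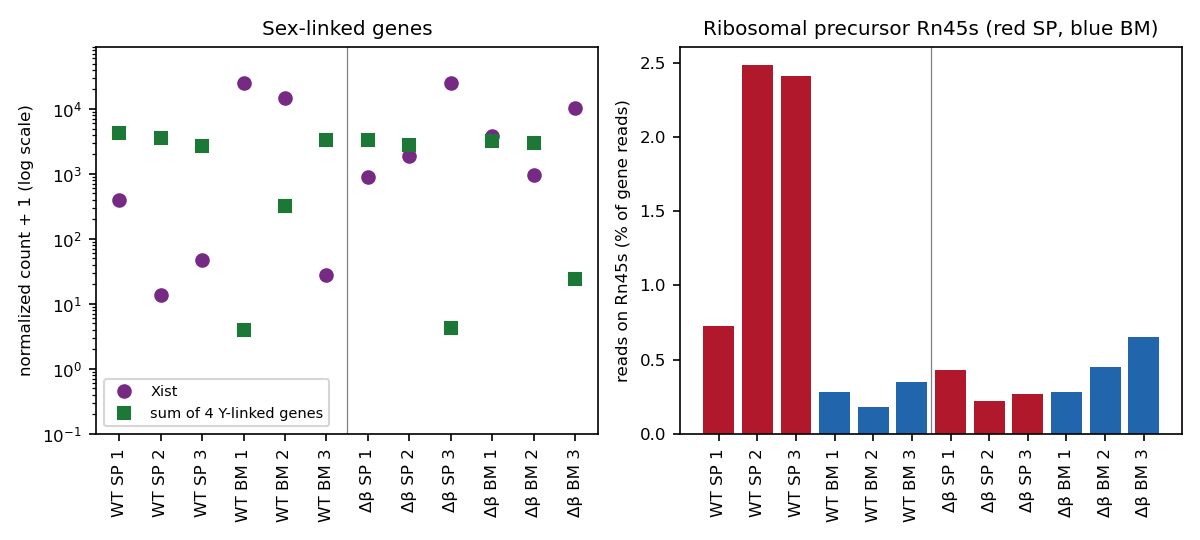
Left, normalized counts plus 1 on a log scale of Xist (circles) and of the sum of Ddx3y, Uty, Kdm5d and Eif2s3y (squares) in each of the 12 libraries. Right, the percent of gene reads on the ribosomal precursor Rn45s in each library, red for SP and blue for BM. WT BM replicates 1 and 2 and replicate 3 of both Δβ groups show high Xist with low Y-linked RNA, and the 3 WT SP libraries hold the highest shares of Rn45s.

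A second library property moved with the organ. Rn45s, the 45S ribosomal precursor, took 0.725%, 2.48% and 2.41% of the gene reads in WT SP and 0.280%, 0.178% and 0.352% in WT BM. Ribosomal RNA carries no poly-A tail, and the libraries were made by poly-A enrichment. Rmrp and Rpph1, the short RNA subunits of RNase MRP and RNase P that also lack a poly-A tail, followed the same pattern. Rmrp was at 25.1, 134 and 66.0 in WT SP and 1.98, 0 and 10.1 in WT BM, and Rpph1 was at 44.4, 272 and 160.3 in WT SP and 13.9, 5.63 and 23.2 in WT BM. Every WT SP library exceeded every WT BM library for the 3 genes. The part of these differences in the other results was not tested.

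Markers of other cells were near the limit of detection in most lists. Of 14 erythroid genes none was tested, 5 had no read in the 6 WT libraries and the globin genes Hbb-bs, Hbb-bt, Hba-a1 and Hba-a2 were among them. The summed erythroid level was 22.3 to 32.5 in WT SP and 15.8 to 22.8 in WT BM. The sums of 8 spleen stroma genes and of 10 endothelial genes were at most 3.38 and 28.4 in every WT library, and Pf4 and Ppbp, which define platelets, stayed at or below 1.13.

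Single lymphoid genes were at low levels in SP, while the summed lymphoid lists overlapped between the organs. Of 2 tested B cell genes 1 had a positive log2 difference, and of 3 tested T and NK cell genes 1 did. Ms4a1, which encodes CD20, was at 6.84, 9.54 and 9.13 in WT SP and 0, 0 and 1.01 in WT BM, and Pax5, the B cell identity factor, had no read. Among 8 B cell genes the summed level was 284 to 406 in WT SP and 225 to 440.5 in WT BM, most of it Cd79b. Among 10 T and NK cell genes it was 132 to 886 in WT SP and 118 to 394 in WT BM, with Cd3e, which defines T cells, at 2.28, 0 and 4.06 in WT SP and 0 in every WT BM library. The highest sum rested on Nkg7, which was at 14.8, 76.3 and 828 in WT SP and 358, 91.2 and 106 in WT BM. Cd2, a T cell adhesion receptor that DESeq2 called (adjusted p = 0.00418), was at 87.8, 92.2 and 17.3 in WT SP and 0.992, 2.25 and 5.04 in WT BM. In WT BM a trace of stroma was seen, with Cxcl12 at 33.7, 13.5 and 8.06 against 2.28, 1.06 and 1.01 in WT SP, while 12 marrow stroma genes summed to 47.9 to 129 in WT SP and 103 to 239 in WT BM, with Pdgfrb the most abundant of them.

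The genes of dendritic cells and antigen presentation were higher in SP on average. Ciita, the master activator of MHC class II genes, was at 30.8, 9.54 and 33.5 in WT SP and 4.96, 1.13 and 2.01 in WT BM, with no overlap. H2-Ab1 was at 310.0, 119 and 291 in WT SP and 109, 41.7 and 56.4 in WT BM, and Cd74, the invariant chain, was at 821, 203 and 712 in WT SP and 337, 4.51 and 58.4 in WT BM, where WT SP replicate 2 lay below WT BM replicate 1. The summed level of the 11 dendritic cell genes was 1129 to 2288 in WT SP and 703 to 1026 in WT BM, and Xcr1, Clec9a, Zbtb46, Siglech and Cd209a, which define dendritic cells, were at most 22.8 each. The 8 genes of mast cells, basophils and eosinophils summed to 2136 to 2884 in WT SP and 673 to 1569 in WT BM, most of it Hdc and Prg2. Of the 6 tested, 3 had a positive and 3 a negative log2 difference. Their median was 0.12, and -0.64 without WT SP replicate 3, so the sum does not speak for the list. The 10 megakaryocyte genes summed to 110.2 to 129.9 in WT SP and 86.3 to 105 in WT BM. In bulk RNA, fewer cells of a type and less RNA per cell cannot be told apart.

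No gene passed an adjusted p of 0.05 between WT SP and WT BM (limma on log2 normalized counts plus 1, 0 of 11477 genes, 0.0%). At an unadjusted p under 0.05 there were 962 genes (8.38%), 511 of them higher in SP (4.45%) and 451 lower (3.93%). That fit shares 1 spread over the 4 groups. With the 6 WT libraries alone there were 569 of 11477 genes, 309 higher and 260 lower. The unadjusted counts of the gene lists below rest on the shared spread. The edgeR quasi-likelihood test on the recovered reads also called 0 genes, with 1123 at an unadjusted p under 0.05. DESeq2 on the same reads called 111 genes (0.967%), 90 higher in SP (0.784%) and 21 lower (0.183%). Of the 21 lower genes 18 did not overlap between the organs. Xist (DESeq2 adjusted p = 0.0281), Nxf7 and Ptbp2 overlapped, with WT BM replicates 1 and 2 the highest WT libraries for each. A term for Y-linked RNA, given below, was fitted in limma only, so the part of that split in the DESeq2 calls was not tested. In 650 genes (5.66%) the 3 WT SP libraries all lay above the 3 WT BM libraries, and in 665 genes (5.79%) they all lay below.

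The count turned on WT SP replicate 3. Without that library limma called 603 genes, 493 higher in SP and 110 lower (5.25% in all, 4.3% and 0.959%). Leaving out any other library left the count at 0. On the first principal component of the 6 WT libraries, which held 51.6% of the variance, WT SP replicates 1 and 2 stood at -76.8 and -28.6, whereas WT SP replicate 3 stood at 34.6 beside the WT BM libraries at 29.7, 31.6 and 9.56. The median SD of a gene on the log2 scale was 0.305 in WT SP and 0.173 in WT BM. With a term for the libraries with little Y-linked RNA, chosen after the data were seen, no gene was called and 351 genes had an unadjusted p under 0.05, 192 higher in SP (1.67%) and 159 lower (1.39%).

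The 10 genes higher in SP with the smallest p and no overlap were Tppp3, Il2rg, Gas2l1, Lars2, Rn45s, Ip6k3, Mybpc3, Jchain, Mir6236 and Smpdl3b, and none of them passed in limma (adjusted p = 0.351 for each). Tppp3 (chromosome 8, 105467492 to 105471422, GRCm38), which encodes a tubulin polymerization-promoting protein, was at 2327, 1593 and 274 in WT SP and 15.9, 48.4 and 45.3 in WT BM. The lowest WT SP library stood above the highest WT BM library, with a log2 difference of 4.90 ± 0.77 (SE). DESeq2 gave an adjusted p of 3.82e-11.

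Il2rg (chromosome X, 101264385 to 101268255), the common γ chain of the receptors for IL-2 and related cytokines, was at 819, 552 and 691 in WT SP and 307, 286 and 269.9 in WT BM. These libraries differed little within each organ, and the log2 difference was 1.24 ± 0.22 (SE, DESeq2 adjusted p = 1.76e-04). Gas2l1 (chromosome 11, 5054131 to 5065348), which links actin filaments to microtubules, was at 159.5, 127 and 96.4 in WT SP and 47.6, 42.8 and 43.3 in WT BM. Its log2 difference was 1.47 ± 0.26 (SE, DESeq2 adjusted p = 2.07e-04).

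Smpdl3b (chromosome 4, 132732966 to 132757171), a lipid-modifying phosphodiesterase of the plasma membrane, was at 1663, 862 and 259 in WT SP and 54.6, 29.3 and 63.4 in WT BM. Ip6k3 (chromosome 17, 27143971 to 27167764), an inositol hexakisphosphate kinase, was at 142, 61.5 and 38.6 in WT SP and 10.9, 7.89 and 3.02 in WT BM. Both were highest in WT SP replicate 1, and their log2 differences were 3.92 ± 0.77 and 3.23 ± 0.61 (SE). Mybpc3 (chromosome 2, 91118114 to 91136516), known as the cardiac myosin-binding protein C gene, was at 86.6, 58.3 and 84.2 in WT SP and 24.8, 28.2 and 40.3 in WT BM, with a log2 difference of 1.28 ± 0.24 (SE).

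Jchain (chromosome 5, 88519809 to 88527897), the joining chain of polymeric antibodies made by plasma cells, was at 22.8, 46.6 and 87.3 in WT SP and 0, 2.25 and 1.01 in WT BM. It was at or below 3 reads in every WT BM library. The kind of cell that its reads came from was not tested, and the summed level of the B cell genes given above overlapped between the organs. Lars2 (chromosome 9, 123366927 to 123462675), a mitochondrial leucyl-tRNA synthetase, was at 3787, 14388 and 12392 in WT SP and 1052, 629 and 1565 in WT BM, and Mir6236 (chromosome 9, 110281287 to 110281409), an annotated microRNA gene, was at 4642, 18296 and 15368 in WT SP and 997, 486 and 1871 in WT BM. Both followed Rn45s, which stood at 91112, 305936 and 263276 in WT SP and 29805, 18712 and 39870.4 in WT BM, and the ratio of Lars2 to Rn45s stayed between 0.0336 and 0.0471 in the 6 WT libraries. A share of their reads in common with ribosomal RNA was not tested.

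The 10 genes lower in SP by the same rule were Vcam1, Msl3l2, Rif1, Skp2, Etaa1, Casc5, Lyrm9, Tgs1, Anln and Wdhd1, with limma adjusted p between 0.351 and 0.487. Vcam1 (chromosome 3, 116110020 to 116129688) was at 699, 1291 and 946 in WT SP and 4730.0, 5511 and 2910.5 in WT BM. Every WT BM library exceeded the highest WT SP library, and the mean was 4.48-fold higher in BM (log2 difference -2.16 ± 0.40 (SE), DESeq2 adjusted p = 1.76e-04). Vcam1 is also a marker of resident macrophages. Of the 15 genes of that list 6 were tested, of which 5 had a positive log2 difference and only Vcam1 a negative one. The members C1qa, C1qb, C1qc, Spic, Timd4 and Cd5l were at or below 2.01 in WT BM. Adgre1 was at 3880.5, 3385 and 1733 in WT SP and 3264, 2229 and 2196 in WT BM. The 15 genes, most of it Adgre1 and Vcam1, summed to 2912 to 6894 in WT SP and 5289 to 8396 in WT BM.

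Several of these genes act in the cell cycle. Skp2 (chromosome 15, 9111982 to 9155425), the F-box protein that marks the CDK inhibitor p27 for degradation, was at 174, 248 and 242 in WT SP and 580.5, 391 and 352 in WT BM. Rif1 (chromosome 2, 52072815 to 52126769), which sets replication timing and the choice of double-strand break repair, was at 977, 1159 and 1167 in WT SP and 1807, 1537 and 1528 in WT BM. The groups did not overlap for either gene, and the log2 differences were -0.98 ± 0.21 and -0.56 ± 0.12 (SE).

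Etaa1, an activator of the checkpoint kinase ATR, was at 252, 255 and 311 in WT SP and 406, 410.1 and 373 in WT BM. Wdhd1, a replisome component, was at 925, 1201 and 1394 in WT SP and 1797, 1704 and 1609 in WT BM. Casc5, a kinetochore scaffold, was at 669, 835 and 813 in WT SP and 1077, 1128 and 1118 in WT BM, and Anln, the anillin of the cleavage furrow, was at 938, 1336 and 1232 in WT SP and 1553, 1774 and 1661 in WT BM. The log2 differences of these 4 genes lay between -0.56 and -0.52, with SE of 0.12 to 0.14. The 3 libraries of WT SP lay below the 3 of WT BM for each of them. Tgs1, which hypermethylates the cap of small nuclear RNAs, was at 558, 626 and 658 in WT SP and 905, 935 and 784 in WT BM, and Lyrm9 was at 119.7, 108 and 108 in WT SP and 168, 209.5 and 160.1 in WT BM. Msl3l2 (chromosome 10, 56083835 to 56116880), a paralog of a subunit of the MSL histone acetyltransferase complex, was at 33.0, 69.9 and 60.9 in WT SP and 231, 287 and 105 in WT BM, with WT BM replicate 3 nearest to SP.

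**Figure D2:**
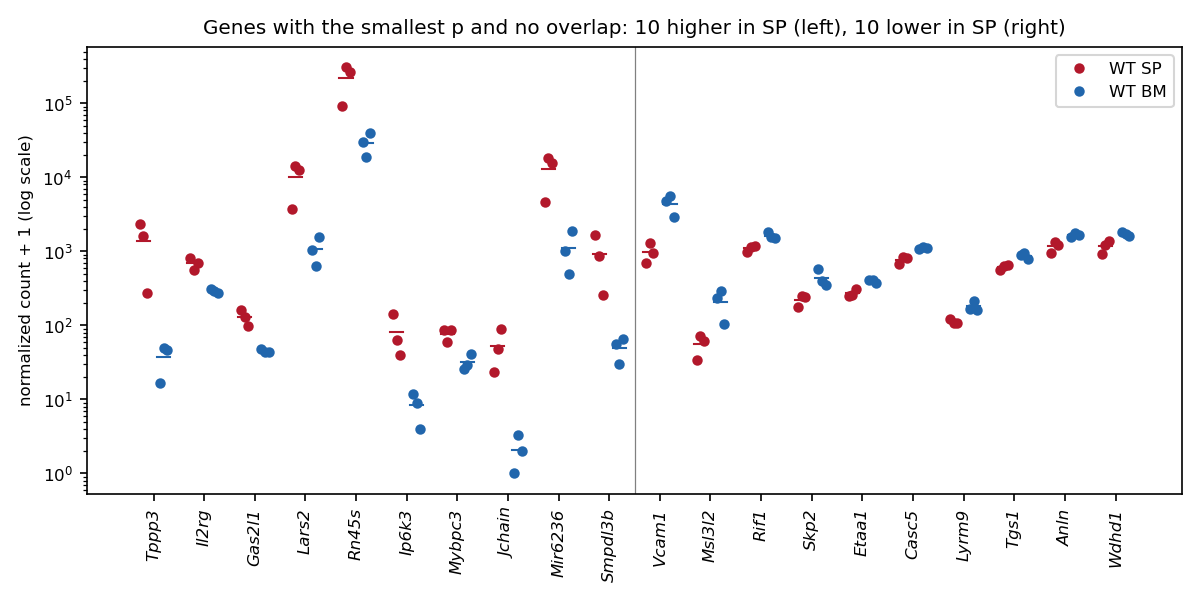
Normalized counts plus 1 on a log scale of the 20 genes with the smallest p and no overlap between organs, with 3 WT SP libraries in red and 3 WT BM libraries in blue. Horizontal lines mark the mean of each group. The first 10 genes were higher in SP and the last 10 lower, and no red point of a gene crosses its blue points.

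Groups of genes were then described by the number of members without overlap, set against 5.66% higher and 5.79% lower over all tested genes, and by the median log2 difference, set against 0.00 over all tested genes. No member of any list passed in limma. Where the text says that DESeq2 called a member, or that members passed without WT SP replicate 3, those counts come from the fits named. Over all tested genes DESeq2 called 0.784% as higher in SP and 0.183% as lower. Without WT SP replicate 3, 4.3% of all tested genes passed as higher and 0.959% as lower. A list with a count near these shares did not stand apart from all tested genes in that fit.

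Immediate early genes, which encode transcription factors and regulators induced within minutes of a stimulus, had the highest median of the 24 lists of processes. Of the 24 listed genes 22 were tested, 21 had a positive log2 difference, 5 were higher in SP without overlap and none was lower. The median log2 difference was 1.26, 12 members had an unadjusted p under 0.05 in the direction of SP, and 5 did (against 1.67% of all tested genes) with the term for low Y-linked RNA, where the median was 0.79. DESeq2 called 2 members (Ier5 and Nr4a1), and 4 passed without WT SP replicate 3.

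Fos, a subunit of the AP-1 factor, was at 17443, 16226 and 13632 in WT SP and 2972, 1710.1 and 11054 in WT BM. Jun, its partner, was at 10625, 16657 and 24722 in WT SP and 5835, 2127 and 18408 in WT BM. Zfp36, which destabilizes cytokine mRNAs, was at 12466, 11638 and 8779 in WT SP and 3588, 2793 and 8836 in WT BM. For each of these genes WT BM replicates 1 and 2 were lowest and WT BM replicate 3 lay near or within the range of WT SP, which is the same split as that of the Y-linked genes. The part of that split in the difference was not tested beyond the term given here. The log2 difference of Fos was 2.03 ± 0.72 (SE), and 0.99 with the term for low Y-linked RNA. Egr1, chosen after its values were seen, was at 1508, 1409 and 1279.7 in WT SP and 85.3, 151 and 714 in WT BM, and Fosb was at 5002, 5381 and 13182 in WT SP and 1154, 231 and 7199 in WT BM.

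Nr4a1, an orphan nuclear receptor needed by patrolling monocytes, had another pattern. It was at 10522, 4801 and 507 in WT SP and 247, 322 and 768 in WT BM, so that WT SP replicate 3 lay below WT BM replicate 3. Its log2 difference was 2.90 ± 0.93 (SE, DESeq2 adjusted p = 0.0133). Ier5, an immediate early gene chosen because DESeq2 called it, was at 2988, 2371 and 1202 in WT SP and 813, 591 and 1254 in WT BM.

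The feedback inhibitors of MAP kinase signaling, DUSP phosphatases and Sprouty proteins, had a positive log2 difference in 10 of 12 tested members, with a median log2 difference of 0.99. Of them 3 were higher without overlap and none lower, DESeq2 called 2 and 4 passed without WT SP replicate 3. Dusp1 was at 17454, 12201 and 5558 in WT SP and 1141, 1236 and 7623 in WT BM. Dusp6, which acts on ERK, was at 2733, 1294 and 208 in WT SP and 324, 143 and 396 in WT BM. Dusp16, chosen after its values were seen and known to act on JNK and p38, was at 2296, 553 and 71.0 in WT SP and 45.6, 11.3 and 42.3 in WT BM. WT SP replicate 1 was the highest library for all 3 genes, and the DESeq2 adjusted p of Dusp16 was 0.00746.

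Genes of NF-κB and its feedback formed a list of 18, all tested, of which 16 had a positive log2 difference. Of them 7 (Nfkbia, Relb, Nfkbib, Bcl3, Tnfaip3, Tnip3 and Traf1) were higher in SP without overlap and none was lower, and 9 had an unadjusted p under 0.05 (4 with the term for low Y-linked RNA). The median was 0.42, 0.39 with the term for low Y-linked RNA and 0.80 without WT SP replicate 3. DESeq2 called Nfkbia, Nfkbiz and Traf1, and 5 members passed without WT SP replicate 3.

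Nfkbia, the inhibitor IκBα that NF-κB itself induces, was at 2792, 2057 and 2332 in WT SP and 1109, 1249 and 1480.4 in WT BM. All WT SP libraries exceeded all WT BM libraries, with a log2 difference of 0.90 ± 0.22 (SE, DESeq2 adjusted p = 0.0244). Nfkb1, the p105 and p50 subunit, was at 4907, 4519 and 3678 in WT SP and 3772, 3428 and 3599 in WT BM, and the organs overlapped. Of the members chosen after their values were seen, Nfkbiz, a nuclear IκB protein, was at 2147, 1170.1 and 381 in WT SP and 116, 119 and 415 in WT BM. Tnfaip3, the A20 inhibitor of NF-κB, was at 936, 583 and 347 in WT SP and 325, 242 and 296 in WT BM. Relb, the subunit of the alternative pathway, was at 268, 278 and 112 in WT SP and 85.3, 77.7 and 71.5 in WT BM. WT SP replicate 3 was the lowest WT SP library for these 3 genes and lay below WT BM replicate 3 for Nfkbiz. Traf1, an adaptor of TNF receptors, was at 85.5, 35.0 and 18.3 in WT SP and 4.96, 1.13 and 10.1 in WT BM.

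The promoters of Nfkbia and of the chemokine gene Cxcl2 are printed because both genes separated the organs and both hold 1 narrow form of the κB motif. That form is GGGA and TTCC set apart by any 2 bases, and other forms of the κB motif were not counted. They are the 250 bases before the start site from RefSeq on GRCm38.p6, 5′ to 3′ on the strand of the gene, with matches on either strand in capitals. Nfkbia lies on the minus strand (chr12:55492648-55492897) and holds 1 match, and Cxcl2 lies on the plus strand (chr5:90903649-90903898) and holds 2 matches that overlap. The motif was found in 1.21% of 32851 such windows of 27025 genes, in 3 of 15 matched genes of the NF-κB list, in 4 of 12 matched chemokine genes and in none of 20 matched immediate early genes. The 3 genes of the NF-κB list were Cyld, Nfkb2 and Nfkbia, of which only Nfkbia was without overlap between the organs.
Nfkbia: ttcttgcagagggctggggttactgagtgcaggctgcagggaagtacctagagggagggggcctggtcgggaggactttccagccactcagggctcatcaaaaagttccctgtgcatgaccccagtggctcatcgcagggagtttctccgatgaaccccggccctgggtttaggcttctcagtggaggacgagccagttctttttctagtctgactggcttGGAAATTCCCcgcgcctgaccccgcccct
Cxcl2: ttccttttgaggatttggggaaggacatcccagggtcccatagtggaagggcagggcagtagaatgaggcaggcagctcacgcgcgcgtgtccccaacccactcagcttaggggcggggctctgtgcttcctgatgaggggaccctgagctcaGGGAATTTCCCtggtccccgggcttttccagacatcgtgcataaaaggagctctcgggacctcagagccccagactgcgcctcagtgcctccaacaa

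Most tested cytokine and chemokine genes had a higher mean in SP. Of 23 cytokine genes 14 were tested, 10 of them had a positive log2 difference, 2 were higher without overlap and none lower (median 0.55). Il1b, the inflammatory cytokine of myeloid cells, was the only one called by DESeq2 (adjusted p = 0.003) and was at 1077, 539 and 67.0 in WT SP and 34.7, 13.5 and 63.4 in WT BM. Vegfa, the angiogenic factor, was at 521, 1098 and 1413 in WT SP and 1714, 1279.8 and 1473 in WT BM, with WT SP replicate 1 the lowest. Osm, oncostatin M, was at 744, 737 and 212 in WT SP and 101, 121 and 334 in WT BM. Without WT SP replicate 3 there were 2 cytokine genes past the threshold.

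Of 20 chemokine genes 9 were tested, 8 had a positive log2 difference and 3 were higher without overlap (median 1.10, and 0.72 with the term for low Y-linked RNA). DESeq2 called none of them and 2 passed without WT SP replicate 3. Cxcl2, which attracts neutrophils through CXCR2, was at 2186, 657 and 226 in WT SP and 4.96, 5.63 and 193 in WT BM. WT BM replicates 1 and 2 held almost none of it, WT BM replicate 3 came close to the lowest WT SP library, and the log2 difference of 5.13 ± 1.34 (SE) became 3.39 with the term for low Y-linked RNA. Ccl6 was at 6828, 2865 and 420.1 in WT SP and 895, 733 and 1264 in WT BM, with WT SP replicate 3 the lowest of all.

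The receptors that guide cells between blood and marrow mostly overlapped between the organs. Of 22 receptor genes 13 were tested, 10 had a positive log2 difference, none was higher without overlap and 1 (S1pr3) was lower, and the median of 0.72 became 0.11 with the term for low Y-linked RNA and 1.82 without WT SP replicate 3. Cxcr4, the receptor of CXCL12 that holds cells in the marrow, was at 4817, 5788 and 3054 in WT SP and 4355, 6048 and 4327 in WT BM (log2 difference -0.14 ± 0.24 (SE), limma adjusted p = 0.873). Cx3cr1, the fractalkine receptor of monocytes, was at 5801, 2517 and 1053 in WT SP and 1610.4, 698 and 747 in WT BM. DESeq2 called none of these 13 genes, and 2 passed without WT SP replicate 3. S1pr5, a sphingosine-1-phosphate receptor outside the list and chosen after its values were seen, was at 2179, 941 and 137 in WT SP and 128, 196 and 146 in WT BM, where WT SP replicate 3 lay within BM (DESeq2 adjusted p = 0.0153).

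Of 26 genes of integrins and adhesion 23 were tested, 20 had a positive log2 difference, 4 were higher in SP without overlap (Itga5, Itgax, Itgb1 and Cd47) and Itga1 was lower. The median was 0.53, and 0.81 without WT SP replicate 3. DESeq2 called Itgax alone, and 11 members passed without WT SP replicate 3. Itgal and Itgb2 together encode LFA-1, the receptor of ICAM-1. Itgal was at 22114, 11569 and 2538 in WT SP and 3719, 3293 and 3667 in WT BM, and Itgb2 was at 25095, 18815 and 5961 in WT SP and 7386, 9737 and 12426 in WT BM. In both, WT SP replicates 1 and 2 exceeded every WT BM library and WT SP replicate 3 lay below every one of them.

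Itgax, which encodes CD11c and was chosen after its values were seen, was at 1624, 326 and 153 in WT SP and 83.3, 19.2 and 55.4 in WT BM (log2 difference 3.25 ± 0.77 (SE), DESeq2 adjusted p = 3.28e-04). Itgb1, the β1 chain that pairs with α4 to bind VCAM1, was at 6094, 4342 and 3582 in WT SP and 3459.9, 2909 and 2851 in WT BM. The organs did not overlap for either gene. Cd44, the hyaluronan receptor, was at 15131, 11379 and 5129.9 in WT SP and 4266, 5867 and 5387 in WT BM, and here WT SP replicate 3 lay within the range of WT BM.

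**Figure D3:**
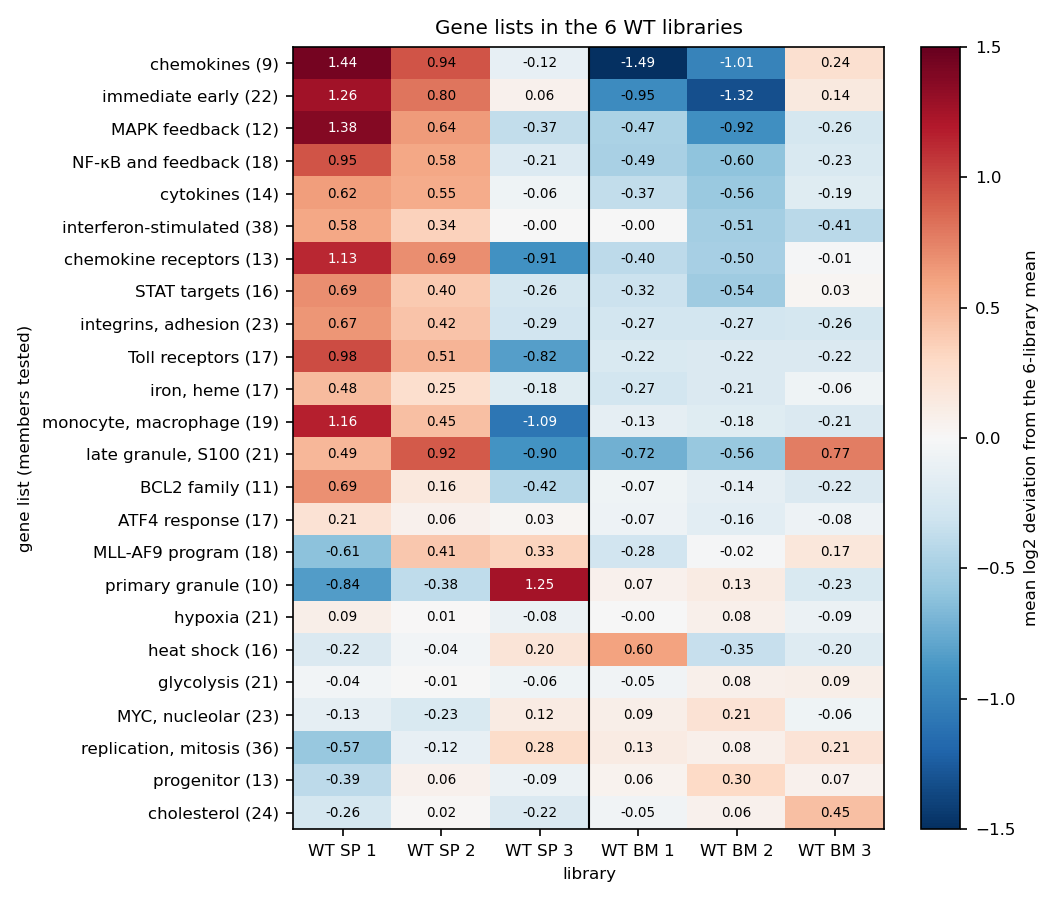
Mean deviation of the tested members of 24 gene lists from their mean over the 6 WT libraries, on the log2 scale of normalized counts plus 1, with 1 column per library and the number of tested members in parentheses. Red stands above and blue below the mean. Most lists at the top were highest in WT SP replicate 1 and near or below 0 in WT SP replicate 3, and the primary granule list was highest in WT SP replicate 3.

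Genes of monocytes varied more between the WT SP libraries than between the means of the organs. Of 22 monocyte and macrophage genes 19 were tested, 11 had a positive log2 difference, 1 was higher without overlap and 1 (F13a1) was lower, and the median was 0.32, and 0.98 without WT SP replicate 3. DESeq2 called 1 member, and 2 members passed without WT SP replicate 3. Lyz2, the lysozyme of myeloid cells, was at 62148, 42416 and 10341 in WT SP and 27341, 18705 and 27224 in WT BM. Csf1r, the receptor of M-CSF, was at 16616, 8024 and 2719 in WT SP and 4694, 2300.4 and 3159 in WT BM. F13a1, the clotting factor subunit that classical monocytes express, was at 8315, 7862 and 3027 in WT SP and 9573, 8992 and 8732 in WT BM. The 3 genes were lowest or second lowest in WT SP replicate 3, and the 19 tested members deviated on average by 1.16, 0.45 and -1.09 in WT SP replicates 1 to 3 against -0.13, -0.18 and -0.21 in WT BM.

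A set of genes chosen after their values were seen, and known from non-classical monocytes, was graded in the same way. Ace, the angiotensin-converting enzyme, was at 10170.1, 2517 and 398 in WT SP and 231, 112 and 142 in WT BM. Treml4 was at 1905, 561 and 159 in WT SP and 90.3, 48.4 and 109 in WT BM, and Adgre4 was at 2296, 511 and 119 in WT SP and 75.4, 28.2 and 52.4 in WT BM. Cd300e, an activating receptor, was at 1899, 203 and 52.8 in WT SP and 26.8, 14.6 and 30.2 in WT BM. WT SP replicate 3 was the WT SP library nearest to BM in all 4 genes, and in none of them did it overlap with BM. Their DESeq2 adjusted p was 0.00626, 0.00156, 1.46e-04 and 0.00354.

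The same order held for most genes called by DESeq2. Of the 90 genes higher in WT SP, 70 (77.8%) were highest in WT SP replicate 1 and lowest in WT SP replicate 3, against 31.7% of all tested genes, and 79 also passed in limma without WT SP replicate 3. The order describes these libraries only, because the DESeq2 calls were made from the same values.

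**Figure D4:**
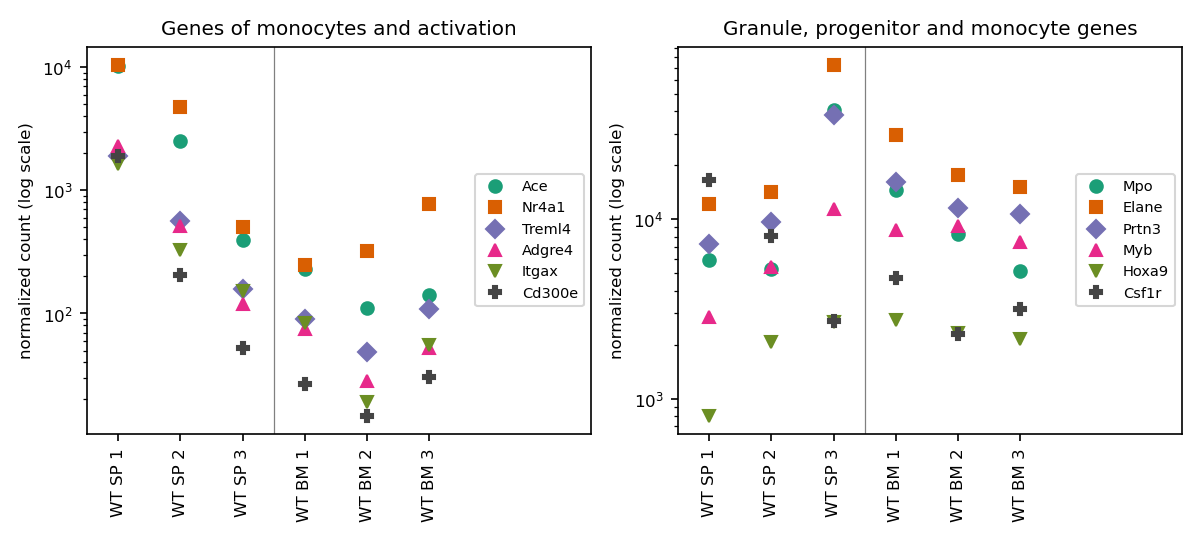
Normalized counts on a log scale in the 6 WT libraries, 1 symbol per gene. Left, Ace, Nr4a1, Treml4, Adgre4, Itgax and Cd300e were highest in WT SP replicate 1 and approached the WT BM level in WT SP replicate 3. Right, Mpo, Elane, Prtn3 and Myb were highest in WT SP replicate 3, and Csf1r was highest in WT SP replicate 1.

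Primary granule genes, which mark promyelocyte-like blasts, ran the other way within WT SP. All 10 were tested, 5 had a positive log2 difference and none separated the organs (median 0.04, and -0.59 without WT SP replicate 3). Mpo was at 5947, 5256 and 40587 in WT SP and 14555, 8288 and 5172 in WT BM. Elane, the neutrophil elastase gene, was at 12215, 14208 and 72724 in WT SP and 29589.5, 17524 and 15123 in WT BM, and Prtn3, proteinase 3, was at 7272, 9690.0 and 38024 in WT SP and 16060.4, 11550.5 and 10669 in WT BM. WT SP replicate 3 held the highest level of the 6 libraries for the 3 genes, and without it their log2 differences changed sign, for Elane from 0.23 to -0.59. DESeq2 called none of the 10 genes, and 1 was lower in SP without WT SP replicate 3.

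Late granule and S100 genes, which accompany neutrophil maturation, followed individual libraries. Of 21 genes, all tested, 14 had a positive log2 difference, 1 (Wfdc21) was higher without overlap and none was lower. The median was 0.27, -0.28 with the term for low Y-linked RNA and 0.69 without WT SP replicate 3. S100a9 was at 59678, 105463 and 39549 in WT SP and 36084, 34001 and 120747 in WT BM. S100a8, its partner in calprotectin, was at 40977, 70767 and 35913 in WT SP and 24905, 21632 and 78001 in WT BM, and Ngp, the neutrophilic granule protein, was at 66489.8, 88743 and 34544 in WT SP and 47319, 54252 and 115069 in WT BM. WT BM replicate 3 was the highest library for the 3 genes. DESeq2 called none, and 1 member passed without WT SP replicate 3.

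The MLL-AF9 program was not separated by organ. Of its 19 genes 18 were tested, 9 had a positive log2 difference, none was higher without overlap and 1 (Hoxa6) was lower (median -0.03). Myb, a transcription factor that MLL-AF9 blasts depend on, was at 2842, 5439 and 11399.5 in WT SP and 8715, 9134 and 7498 in WT BM. It was lowest in WT SP replicate 1 and highest in WT SP replicate 3, and only without WT SP replicate 3 did it pass as lower in SP (limma adjusted p = 0.0361). Mecom, which DESeq2 called, was at 3.42, 82.7 and 92.3 in WT SP and 1.98, 3.38 and 8.06 in WT BM, so WT SP replicate 1 lay with BM. Among 15 progenitor genes 13 were tested, 3 had a positive log2 difference and none separated the organs (median -0.33, 0.04 with the term for low Y-linked RNA and -0.49 without WT SP replicate 3). Spi1, which encodes the myeloid factor PU.1, was at 9726, 7918 and 5839 in WT SP and 4292, 4375 and 6109 in WT BM. Without WT SP replicate 3, 1 progenitor gene passed as higher and 1 as lower.

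Genes of DNA replication and mitosis had a small negative log2 difference. All 36 were tested and all 36 were negative, with a median of -0.25, and -0.47 without WT SP replicate 3. The members deviated on average by -0.57, -0.12 and 0.28 in WT SP replicates 1 to 3 and by 0.13, 0.08 and 0.21 in WT BM, so that WT SP replicate 1 was the lowest and WT SP replicate 3 the highest of the 6 libraries. Of them 4 (Top2a, Ccne2, Cdc6 and Cenpf) were lower without overlap and none was higher, 5 had an unadjusted p under 0.05 (2 with the term for low Y-linked RNA), and 3 passed without WT SP replicate 3. With the term for low Y-linked RNA the median was -0.23. The members share the cell cycle and the libraries, so their signs are not independent of each other.

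Mki67, the proliferation marker, was at 7665, 10143 and 10869 in WT SP and 12151, 10362 and 13763 in WT BM. Top2a, the topoisomerase of dividing cells, was at 6233, 8183 and 8531 in WT SP and 9654, 10138 and 10387 in WT BM. Ccne2, cyclin E2, was at 145, 296 and 261 in WT SP and 459, 350.4 and 394 in WT BM. WT SP replicate 1 was the lowest library for each, and the log2 differences were -0.35 ± 0.16, -0.41 ± 0.14 and -0.83 ± 0.23 (SE). Cdc6, a licensing factor of replication origins, was at 406, 660.3 and 749 in WT SP and 1045, 847 and 781 in WT BM. In Δβ blasts 26 of the 36 genes had a positive log2 difference and the median was 0.04. The MYC and nucleolar list held 23 tested genes, 3 with a positive log2 difference and 2 lower without overlap (median -0.18 in WT, -0.32 without WT SP replicate 3, and 0.21 in Δβ), and 1 passed as higher without WT SP replicate 3.

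Most interferon-stimulated genes had a higher mean in WT SP. Of 46 genes 38 were tested, 34 had a positive log2 difference, 10 were higher without overlap and none was lower. At an unadjusted p under 0.05, 5 were higher in SP. With the term for low Y-linked RNA 1 was higher and 1 was lower at that p. The median was 0.51, against 0.62 in Δβ blasts, and it was 0.05 with the term for low Y-linked RNA. Tap1, the peptide transporter of MHC class I loading, was at 1039, 975 and 1333 in WT SP and 773, 759 and 861 in WT BM. Oas1a, chosen after its values were seen, was at 325, 355 and 319 in WT SP and 269, 185 and 196 in WT BM, and Ube2l6, an ISG15-conjugating enzyme, was at 69.5, 82.7 and 62.9 in WT SP and 43.7, 13.5 and 44.3 in WT BM. The organs did not overlap for these 3 genes, although the log2 difference of Tap1 changed sign with the term for low Y-linked RNA (from 0.47 to -0.18). Cd274, which encodes PD-L1 and was the only member DESeq2 called, was at 784, 200.3 and 66.0 in WT SP and 70.4, 49.6 and 67.5 in WT BM, and 2 members passed without WT SP replicate 3.

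Of 17 genes of STATs, their receptors and targets 16 were tested, 12 had a positive log2 difference, 2 (Socs3 and Pim1) were higher without overlap and 1 (Pim3) was lower (median 0.28, and 0.52 without WT SP replicate 3). Socs3, the feedback inhibitor that STAT3 induces, was at 1442, 321 and 175 in WT SP and 32.7, 24.8 and 150.1 in WT BM. Pim1, a kinase gene that STAT factors induce, was at 1528, 1028 and 874 in WT SP and 276, 275 and 470.3 in WT BM. Their log2 differences were 3.09 ± 0.77 and 1.75 ± 0.41 (SE), with DESeq2 adjusted p of 0.00434 and 0.00507. Mcl1, the survival factor of myeloid cells, was at 14250.0, 10311 and 5636 in WT SP and 4693, 4371 and 6401 in WT BM, where WT SP replicate 3 lay within BM. Without WT SP replicate 3, 4 members passed.

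Among the 11 tested genes of the BCL2 family 8 had a positive log2 difference and 2 were higher without overlap (median 0.08, and 0.48 without WT SP replicate 3). These were Bak1, at 2528, 1968 and 2236 in WT SP and 1640.2, 1573 and 1799 in WT BM, and Pmaip1 (Noxa), at 2135, 1963 and 1416 in WT SP and 635, 1118 and 1101 in WT BM, and both promote apoptosis. Of 17 tested Toll and Nod receptor genes 15 had a positive log2 difference and only Tlr4 was higher without overlap, at 353, 298 and 379.5 in WT SP and 279, 277 and 269 in WT BM (median 0.31, and 1.01 without WT SP replicate 3). The Toll list deviated on average by 0.98, 0.51 and -0.82 in WT SP replicates 1 to 3 and by -0.22 in each WT BM library. Myd88, their adaptor, was at 2717, 2005 and 1183 in WT SP and 1062, 1096 and 1349 in WT BM. Without WT SP replicate 3, 2 of the Toll list and none of the BCL2 list passed.

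Iron handling separated a few genes. Of 17 tested members 11 had a positive log2 difference, 3 (Hp, Ftl1 and Hfe) were higher without overlap and none was lower (median 0.10, and 0.18 without WT SP replicate 3). Hfe, the regulator of hepcidin whose loss causes iron overload, was at 1384, 369 and 145 in WT SP and 106, 91.2 and 70.5 in WT BM. Slc11a1, the metal transporter of phagosomes, was at 3501, 1379.9 and 194 in WT SP and 194, 232 and 304 in WT BM. Ftl1, the ferritin light chain, was at 6124, 4686 and 4103 in WT SP and 3266, 3534 and 3856 in WT BM. DESeq2 called Hfe (adjusted p = 0.00411) and Slc11a1 (adjusted p = 0.0142), and without WT SP replicate 3 there were 3 higher and 1 lower.

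Cholesterol synthesis leaned the other way. Of 25 genes 24 were tested, 5 had a positive log2 difference, none was higher without overlap and 5 were lower, among them Sqle, Lss, Cyp51 and Stard4. The median was -0.25 in WT and -0.27 in Δβ blasts, and -0.09 in WT with the term for low Y-linked RNA. Sqle, squalene epoxidase, was at 142, 224 and 152 in WT SP and 239, 293 and 450.2 in WT BM. WT BM replicate 3 was highest for Sqle, and no member was called by DESeq2 or without WT SP replicate 3.

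Glycolysis and hypoxia showed no common direction. Of 21 tested glycolysis genes 11 had a positive log2 difference and 3 were lower without overlap (median 0.05), among them Hk2, an inducible hexokinase, at 1088, 1256 and 1288 in WT SP and 2009, 2021 and 1451 in WT BM. Of 21 tested hypoxia genes 11 had a positive log2 difference and 1 (Plin2) was higher without overlap (median 0.01). Plin2, a lipid droplet coat protein, was at 3589, 2537 and 1730.3 in WT SP and 1553, 1220.0 and 1487 in WT BM. Of 16 tested heat shock genes 6 had a positive log2 difference and 1 (Bag3) was higher without overlap, at 426, 279.8 and 249.6 in WT SP and 248, 196 and 201 in WT BM (median -0.05). Without WT SP replicate 3 the medians of the 3 lists were -0.09, 0.13 and -0.13, and 1 glycolysis gene passed.

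Of 17 tested genes of the ATF4 response 8 had a positive log2 difference, 3 were higher without overlap and 1 was lower (median -0.03, and -0.15 without WT SP replicate 3). Slc7a11, the cystine transporter, was at 313, 102 and 26.4 in WT SP and 24.8, 20.3 and 17.1 in WT BM, and Nupr1, a stress-induced chromatin protein, was at 446, 250.1 and 79.2 in WT SP and 83.3, 39.4 and 42.3 in WT BM. DESeq2 called both, with adjusted p of 0.0244 and 0.0434, and 2 members passed without WT SP replicate 3. Both were graded like Ace, with WT SP replicate 1 the highest library.

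The organ difference of Δβ blasts uses no WT library and was set beside that of WT blasts. In Δβ, 338 genes (2.95%) were higher in SP without overlap and 520 (4.53%) were lower. In both genotypes 49 genes (0.427%) were higher without overlap and 48 (0.418%) were lower. These are 7.54% of the 650 WT genes and 14.5% of the 338 Δβ genes for the higher direction, and 7.22% of 665 and 9.23% of 520 for the lower. In opposite directions there were 19 genes higher in WT and lower in Δβ (0.166%) and 12 genes lower in WT and higher in Δβ (0.105%). Across the 11477 genes, which share libraries and are not replicates, the log2 differences of the genotypes had a Pearson correlation of 0.219.

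In Δβ, unlike in WT, libraries with the same number deviated together, and the counts without overlap do not use that pairing. With the Δβ libraries taken as pairs, chosen after the data were seen, SP was higher in all 3 pairs in 15.6% of the tested genes and lower in 18.7%. Of the 650 genes higher in WT SP 25.5% were higher and 11.8% lower in all 3 Δβ pairs, and of the 665 lower genes 7.22% were higher and 22.3% lower. The limma fit with the replicate number as a block called 0 genes between Δβ SP and Δβ BM, with 328 at an unadjusted p under 0.05. DESeq2, without that block, called 2 genes in Δβ against 111 in WT. Of the 2, 1 was higher in Δβ SP (Jchain, DESeq2 adjusted p = 0.0404) and 1 was lower.

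Of the 650 genes higher in WT SP without overlap 60.6% had a positive log2 difference in Δβ, against 50.4% of all tested genes, and of the 665 lower genes 40.6% did. The medians in Δβ were 0.06 for the higher and -0.04 for the lower genes, against 0.34 and -0.40 in WT. The leading genes shared by both genotypes, named after their values were seen, were Jchain, Tppp3 and Gas2l1. Jchain was at 39.5, 118 and 117 in Δβ SP and 2.17, 12.8 and 0 in Δβ BM, and Tppp3 was at 622, 343 and 560.5 in Δβ SP and 174, 93.4 and 40.4 in Δβ BM. Gas2l1 was at 88.4, 84.0 and 85.4 in Δβ SP and 75.0, 61.9 and 40.4 in Δβ BM. The log2 differences were 4.63 in WT and 4.55 in Δβ for Jchain, 4.90 and 2.49 for Tppp3, and 1.47 and 0.58 for Gas2l1.

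Itgax was at 46.5, 121 and 80.1 in Δβ SP and 39.1, 44.4 and 29.0 in Δβ BM, and Ciita was at 19.4, 30.2 and 9.61 in Δβ SP and 8.70, 9.34 and 0 in Δβ BM. Both were higher in SP without overlap in each genotype. For Ciita in Δβ the lowest SP library (9.61) and the highest BM library (9.34) nearly met. Rgs5, a regulator of G protein signaling that vascular mural cells express, was lower in SP in both, at 3.42, 19.1 and 3.04 in WT SP, 23.8, 29.3 and 31.2 in WT BM, 6.98, 17.9 and 23.5 in Δβ SP and 38.1, 24.5 and 42.5 in Δβ BM.

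Other WT differences had no counterpart of that size in Δβ. Vcam1 was at 1157, 2409 and 760.1 in Δβ SP and 1684, 2131 and 1244 in Δβ BM, with overlap. Ace was at 625, 157 and 215 in Δβ SP and 526, 147 and 32.1 in Δβ BM, and Nr4a1 was at 430.1, 478 and 557 in Δβ SP and 845, 197 and 403 in Δβ BM. Both genes were below WT SP replicates 1 and 2 in every Δβ library, while 2 Δβ libraries exceeded WT SP replicate 3 for each. In Ace the Δβ SP library exceeded the BM library of the same number in all 3 pairs. The immediate early list had a median of -0.11 in Δβ, with 9 of 22 genes positive, and the NF-κB list had 0.05. The test of the difference itself, the organ difference in WT minus that in Δβ, called 0 of 11477 genes in limma and in edgeR, with 373 and 434 at an unadjusted p under 0.05, and 0 in limma with the block, with 426. DESeq2 called 5 genes (0.0436%).

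**Figure D5:**
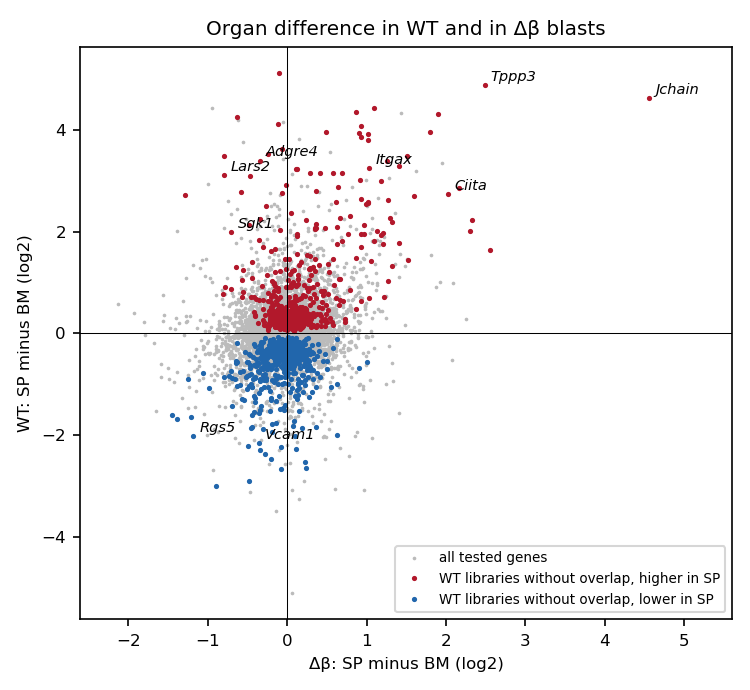
Log2 difference between SP and BM in WT blasts (vertical axis) against that in Δβ blasts (horizontal axis) for 11477 genes, 1 point per gene. Genes whose WT libraries did not overlap are red where higher and blue where lower in SP. Jchain and Tppp3 lie far from 0 on both axes, while Lars2, Adgre4, Sgk1 and Vcam1 lie far from 0 mainly in WT.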

How the data were processed

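Leukemic blasts were sorted as Venus+ cells and their RNA was sequenced after poly-A enrichment, with 3 libraries in each of 4 groups (WT SP, WT BM, Δβ SP and Δβ BM). Per the submitters' processing notes, FastQC, STAR, featureCounts and DESeq2 were used with GRCm38 (mm10), and versions and the annotation were not given in the sources used here. The deposited table holds a normalized signal per gene, made by the authors as read counts divided by 1 size factor per library. Its column names stand 1 place to the left of their columns, and 6 of its columns carried no sample label and were not used. Each value was a whole multiple of the library's step (100% of values, tolerance 0.01 reads), so reads were recovered and are free of length correction.

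The main test was limma 3.58.1 in R 4.3.3 (trend on mean expression, 4 group means, all 12 libraries sharing 1 estimate of the spread) on log2(normalized count + 1) of genes whose average in the 6 WT libraries reached 10, with Benjamini-Hochberg adjustment over all tested genes at 0.05. Fold changes are therefore on the log2(value + 1) scale, which understates the change of low genes. edgeR 4.0.16 (quasi-likelihood) and DESeq2 1.42.0 on the recovered reads, another pseudocount and filters, quantile normalization, the WT libraries alone, a replicate block and leaving out each library were the alternatives. A term for the 4 libraries whose summed Y-linked level was under 25% of the median over the 12 was added after seeing the data. Total reads per library set the counting error of each value, and p-values cover the spread between libraries.

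The text names the 10 genes with the smallest p in each direction among those without overlap, the most abundant members of each list and genes whose choice after seeing values is stated. The members and lists were chosen with earlier results of these data known. Residuals of same-numbered SP and BM libraries correlated at 0.569 to 0.641 in Δβ, which were taken as pairs, and at -0.239 to -0.0065 in WT, which were not. Gene positions and the promoter windows came from RefSeq on GRCm38.p6. The table pairs no read with a strand, so overlapping and antisense genes were not separated here.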

Additional observations from a re-analysis of the deposited data

Results flagged for a closer look

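In 5 genes the organ difference in WT minus that in Δβ passed an adjusted p of 0.05 in DESeq2, and in limma none of them did. The differences on the log2 scale of DESeq2 were 4.03 for Lars2 (DESeq2 adjusted p = 2.45e-04), 3.48 for Rn45s (DESeq2 adjusted p = 3.39e-04), 4.45 for Mir6236 (DESeq2 adjusted p = 0.00114), 4.73 for Adgre4 (DESeq2 adjusted p = 0.0471) and 2.90 for Sgk1 (DESeq2 adjusted p = 0.0471). Rn45s was at 46183, 23229.8 and 27073 in Δβ SP and 30179, 47358 and 68516 in Δβ BM, so that the Δβ organs overlapped, while WT SP stood above WT BM. Lars2 was at 1905, 866 and 1032 in Δβ SP and 1271, 2068 and 3342 in Δβ BM. Adgre4, a receptor of the EGF-TM7 family, was at 80.6, 42.6 and 53.4 in Δβ SP and 138, 30.4 and 89.1 in Δβ BM, and WT SP replicate 1 held the highest level of the 12 libraries. Sgk1, a serum- and glucocorticoid-induced kinase, was at 1499, 925 and 509 in WT SP, 152, 214 and 344 in WT BM, 213, 162 and 172 in Δβ SP and 579, 159 and 279 in Δβ BM.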

How the results depend on the processing

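The count of 0 genes held under another pseudocount, no filter or a stricter one, TMM or quantile scaling, no trend, edgeR, the 6 WT libraries alone (569 genes at an unadjusted p under 0.05) and the term for low Y-linked RNA. A minimum fold was also applied, which could not raise a count of 0. DESeq2 gave 111 genes (90 higher, 21 lower) and 5 genes for the difference between genotypes, of which the cause was not tested. Of the 111 genes 22 were members of a process or marker list, among them the marker genes Xist, Vcam1 and Cd2. Over all tested genes DESeq2 called 0.967%. Leaving out 1 library gave 0 to 603 genes (0 to 493 higher, 0 to 110 lower) and 0 to 59 list members. All of the upper values came without WT SP replicate 3, where 5.25% of all tested genes passed. These list counts run over process and marker lists together and were not set against the number of members tested. With the replicate number as a block (replicate block) 0 genes passed and 1051 had an unadjusted p under 0.05. The residuals of WT libraries with the same number correlated at -0.0065, -0.042 and -0.239, so the WT numbers were not taken as pairs. Signs changed in few named genes, for causes that were not tested. Quantile scaling gave log2 differences of -0.12 for Elane, -0.010 for Prtn3, -0.14 for S100a9 and -0.044 for Lyz2. For Nkg7 edgeR and DESeq2 gave 0.74, against -0.60 in limma. The term for low Y-linked RNA gave -0.18 for Tap1, -0.13 for Elane, -0.0016 for Prtn3, -0.35 for S100a8, -0.42 for S100a9 and -0.31 for Lyz2. Leaving out 1 library gave -0.20 to 1.09 for Lyz2, -0.12 to 0.84 for S100a9, -0.34 to 0.12 for Cxcr4, -0.59 to 0.69 for Elane, -0.58 to 0.61 for Prtn3, -0.61 to 0.86 for Mpo, -0.47 to 0.22 for Ngp, -0.056 to 0.52 for Adgre1 and -2.12 to 0.73 for Nkg7. With 3 libraries in a group and WT SP this spread, differences of single genes had wide errors, and levels under 3 reads were at the limit of depth.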

Other observations

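Among the genes lower in SP without overlap in both genotypes, all named after their values were seen, were Ret and Aldoc. Ret, a receptor tyrosine kinase, was at 1.14, 12.7 and 6.09 in WT SP, 14.9, 13.5 and 24.2 in WT BM, 6.98, 6.72 and 1.07 in Δβ SP and 14.1, 11.7 and 12.4 in Δβ BM. For Ret, WT SP replicate 2 (12.7) and WT BM replicate 2 (13.5) held the same number of reads, and only the size factors set them apart. Aldoc, an aldolase of glycolysis, was at 106, 104 and 50.7 in WT SP, 120.1, 177 and 152 in WT BM, 99.2, 47.0 and 76.9 in Δβ SP and 101, 103 and 159.5 in Δβ BM. Among the genes higher in SP in both were Lmna, the gene of the nuclear lamins A and C, and Mvp, the major vault protein. Lmna was at 1554, 1383 and 472 in WT SP, 461, 148 and 223 in WT BM, 679, 464 and 805 in Δβ SP and 259, 354 and 264 in Δβ BM. Mvp was at 2271, 1305 and 838 in WT SP, 643, 619.6 and 671 in WT BM, 1133, 1089.9 and 876 in Δβ SP and 591, 871 and 539.7 in Δβ BM.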
